A study of Mus musculus with 4 samples.

Results

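The resting transcriptome of macrophages in an experimental brain tumour was read from the 2 control libraries of a series of 4 bulk RNA-sequencing libraries of mouse tumour-associated macrophages. Members were chosen by the title of the library alone, and the profile was described over the 22046 genes that the deposited table marks as protein-coding, of 54532 genes in all. The cells came from glioblastoma xenografts, which were cut up, digested with a protease blend and DNase in the warm, and cleared of red cells by lysis. Flow cytometry then kept live cells that carry the leukocyte marker CD45 and the myeloid marker CD11b and lack Gr1, a marker of neutrophils and inflammatory monocytes. The mice are labelled "GBM mice", with no inbred strain, age or sex given, and the control libraries are labelled as control macrophages. The labels disagree on the material: their treatment and RNA protocols speak of glioma stem cells given a vehicle, and their other entries of macrophages from the sort. The remaining libraries, from treatment with the BACE1 inhibitor MK-8931, were not used here. The labels do not say whether the control libraries came from separate animals or from pools, so the spread between them may be technical, and with 2 libraries no test was run.

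Macrophages are phagocytes that engulf dying cells, lipid and debris and break them down in lysosomes, acid compartments filled with proteases, glycosidases and lipases. In glioblastoma they are the main immune population and come from both the microglia resident in the brain and monocytes that enter from blood. They depend on the receptor CSF1R for survival and on the transcription factor PU.1 (gene Spi1) for their identity.

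Control 1 held 18389023 counts and control 2 held 20179875, of which protein-coding genes took 97.9% and 98.4%. Counts were present for 14417 protein-coding genes in control 1 and 14109 in control 2. Levels are given as FPKM, counts scaled by the authors to gene length and library size, so that genes can be set against each other. That length is the deposited one. How far it matches the transcripts present was not tested, and ranks between genes depend on it. CPM, the count scaled to library size without the length, was used for ratios between the libraries. The limit that a count of 0 allows is 3 counts, which is 0.163 CPM in control 1 and 0.149 CPM in control 2. It covers counting error only.

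All 5 macrophage markers were among the strongly expressed genes of both libraries. The lysozyme gene Lyz2, which encodes an enzyme that cuts bacterial cell walls, stood at 2991 FPKM in control 1 and 4240 in control 2, rank 5 by the mean. Ctsb, which encodes the lysosomal cysteine protease cathepsin B, stood at 1796 and 2173 FPKM. By counts per gene, not corrected for its length of 6051 bases, Ctsb was the highest gene in both libraries, with 203037 and 256645 counts. The lysosomal glycoprotein gene Cd68 stood at 1279 and 1458 FPKM. Adgre1, which encodes the F4/80 antigen, stood at 332 and 366 FPKM. Csf1r, the receptor that macrophages need for survival, stood at 329 and 318 FPKM. Lyz2, Ctsb, Cd68 and Adgre1 were higher in control 2, and Csf1r was slightly higher in control 1.

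In GRCm38 coordinates, Lyz2 (ENSMUSG00000069516) lies on chromosome 10 from 117277331 to 117282321 on the minus strand. Ctsb (ENSMUSG00000021939) lies on chromosome 14 from 63122462 to 63145923 on the plus strand. Cd68 (ENSMUSG00000018774) lies on chromosome 11 from 69664213 to 69666153 on the minus strand. Adgre1 (ENSMUSG00000004730) lies on chromosome 17 from 57358691 to 57483527 on the plus strand.

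Of the 22046 protein-coding genes, 9993 (45.3%) had a mean of at least 1 FPKM, the level taken here as expressed. In both libraries singly 9751 genes reached it, 259 did so in control 1 alone and 183 in control 2 alone. No count was seen in either library for 7023 genes. The median of the expressed genes was 7.95 FPKM. At the threshold, Unkl lay just inside with a mean of 1.0003 FPKM and Arvcf just outside with 0.9992. Between 1 and 10 FPKM lay 5780 genes, 3755 between 10 and 100, 433 between 100 and 1000, and 25 at 1000 or over.

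The transcriptome was concentrated in few genes. The 25 genes at 1000 FPKM or over held 20.9% of the summed FPKM, and 311 genes held 50% of it. The 10 highest genes held 12.2% in control 1 and 13.2% in control 2, and 9 of them were shared by the top 10 of each library. The 100 highest held 33.5% and 36.3%, with 92 shared, and the 1000 highest held 66.6% and 69.4%, with 927 shared.

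Iron storage, lipid transport, lysosomal digestion, complement C1q and the actin skeleton filled the head of the ranking. The highest gene was Fth1, the heavy chain of ferritin, which oxidises and stores iron, at 6578 FPKM in control 1 and 6706 in control 2 (mean 6642 ± 90.6, SD, n = 2). Next came Apoe, the lipid-carrying apolipoprotein E, at 3949 and 5170 FPKM (SD 864). Spp1, which encodes the secreted matrix protein osteopontin, stood at rank 3, with 3259 and 4639 FPKM (SD 976). The mitochondrially encoded cytochrome oxidase gene mt-Co1 stood at rank 4, with 3139 and 4408 FPKM. Psap, the precursor of the saposins that help lysosomal enzymes to degrade sphingolipids, stood at rank 6, with 3227 and 3435 FPKM. The 3 genes for the chains of complement C1q were all in the top 30. C1qa stood at 2574 and 4027 FPKM, C1qb at 1524 and 2229, and C1qc at 925 and 1242.

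Cathepsin D (Ctsd) stood at 2826 and 3559 FPKM, and the light chain of ferritin (Ftl1) at 2340 and 2739. The cytoskeletal genes Actb and Actg1 (actins) stood at 2869 and 2818 and at 971 and 942 FPKM, Tmsb4x, which binds free actin, at 2126 and 2937, and Vim (vimentin) at 952 and 1042. B2m, the light chain of MHC class I, stood at 2159 and 2147 FPKM, and H2-D1, a class I heavy chain, at 888 and 1067. The remaining genes of the top 30 included the lysosomal proteases Lgmn, Ctss and Ctsz, the protease inhibitor Cst3, progranulin (Grn), the galectins Lgals3 and Lgals1 and the haem-degrading enzyme Hmox1. They also included Eef1a1 and Rplp1 of the translation machinery and mt-Nd1 of the respiratory chain, and lay between 784 FPKM (Lgals1, control 1) and 2430 FPKM (Eef1a1, control 2).

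The order within the top 30 was only partly the same in the 2 libraries. By FPKM, control 2 was higher for 27 of the 30 genes, and Actb, B2m and Actg1 were the exceptions. It was also higher for 93 of the 100 highest genes and 790 of the 1000 highest. Over the 9674 genes with a mean of at least 5 CPM, the median log2 ratio of control 1 over control 2 was -0.03 by FPKM and 0.04 by CPM. By CPM, which shifts every ratio toward control 1, Fth1 was also higher in control 1. Of the 29 pairs of neighbours in the ranking, 12 kept their order in both libraries. Fth1 over Apoe and Apoe over Spp1 were among those. Without the correction for length, the 30 highest genes by CPM shared 18 with the 30 highest by FPKM.

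**Figure D1:**
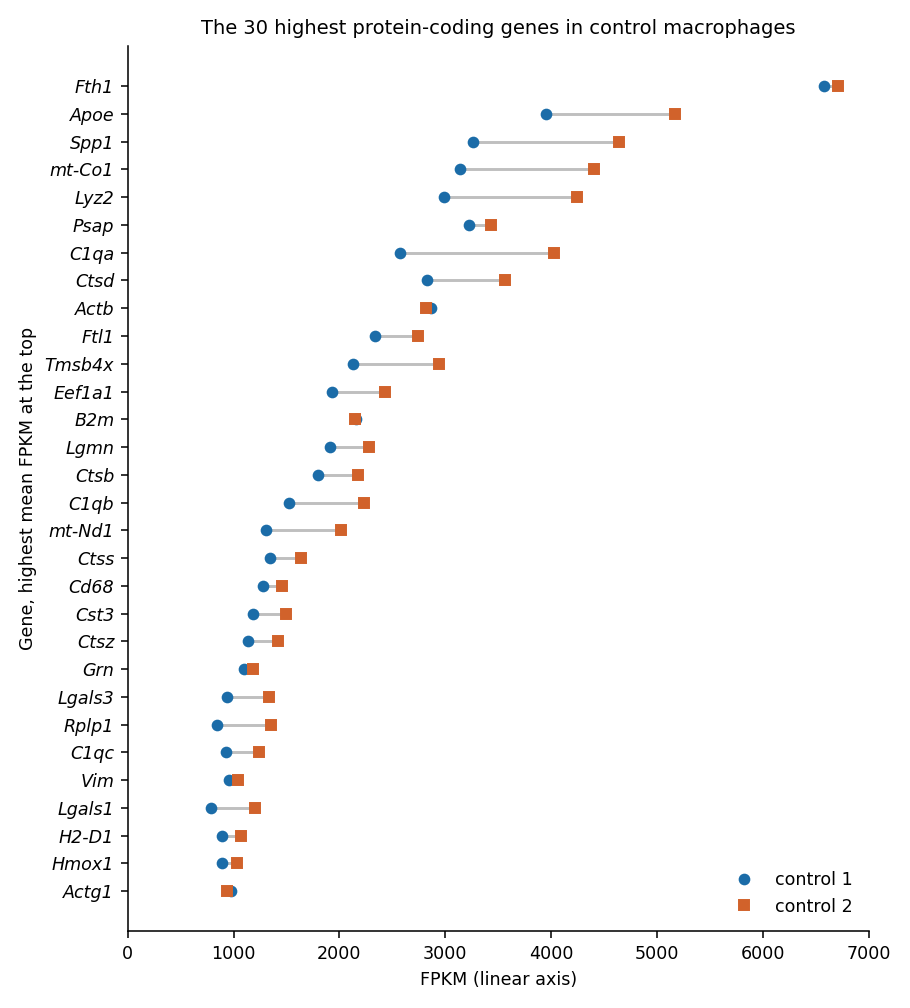
The 30 protein-coding genes with the highest mean FPKM in the control libraries, on a linear axis, with control 1 as circles, control 2 as squares and a line joining the pair. Fth1 stands apart at 6578 and 6706 FPKM, and control 2 lies to the right of control 1 in 27 of 30 genes.

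Lysosomal genes were high as a class. The lists of genes used from here on were chosen with earlier results of these data known, and each is described by how many of its protein-coding members were expressed, beside 45.3% of all genes, and by its median percentile in the ranking, beside 50 for all genes. Of 15 cathepsins, 13 were expressed, with a median percentile of 98.4, and 6 were in the top 100. Ctsd, Lgmn, Ctsb and Ctss led, and Ctsa, which protects other lysosomal enzymes, stood at 476 and 511 FPKM. Lgmn (legumain, an asparaginyl endopeptidase) stood at 1910 and 2275 FPKM and Ctss, which trims the invariant chain of MHC class II, at 1347 and 1641. Ctsw and Ctsg, proteases of lymphocytes and of neutrophil granules, stood at 0 and 0.0416 and at 0.311 and 0.149 FPKM. The 13 expressed cathepsins reached 2826 FPKM in control 1 and 3559 in control 2 and went down to 2.57 and 2.84 for Ctse.

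All 28 lysosomal hydrolases and their activators were expressed, at a median percentile of 97.1. Below Psap, Hexa, a subunit of beta-hexosaminidase, stood at 353 and 439 FPKM, and the mannosidase Man2b1 at 208 and 214. The lowest, the sulfatase Arsb, still stood at 12.8 and 13.8 FPKM. All 24 lysosomal membrane proteins and proton pump subunits were expressed, again at a median percentile of 97.1. Below Cd68, the membrane glycoprotein Lamp1 stood at 739 and 851 FPKM, Laptm5 at 512 and 467, and the tetraspanin Cd63 at 152 and 237. Cst3 (cystatin C, 1182 and 1496 FPKM) and Cstb (cystatin B, 414 and 577) were the highest inhibitors of cathepsins. Serpinb6a (53.5 and 73.5) and Cst7 (5.65 and 5.97) followed, and Cst6 and Stfa1 had no count.

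Promoter sequences were taken from RefSeq (GRCm38.p6) as the 250 bases before each annotated start, with 20120 windows for 16497 of 22018 gene symbols. TCACGTGA, the palindromic core of the CLEAR element bound by the lysosomal regulators TFEB and TFE3, was found in 1.03% of all windows. It was found in 4 of 64 windows (6.25%) of the lysosomal lists without the inhibitors, beside 1.61% of windows of expressed genes and 4 of 86 (4.65%) of the top 100. Of the lysosomal matches, 2 were among the 13 cathepsin windows. The windows of the highest matching cathepsins are shown because they are the cathepsin windows that carry the element, with the element in capitals and 30 bases on each side where the window reaches that far. Ctsd is on chr7:142387889-142387956, minus strand, and Ctsa is on chr2:164833730-164833772, plus strand, before the later of its RefSeq starts.
Ctsd: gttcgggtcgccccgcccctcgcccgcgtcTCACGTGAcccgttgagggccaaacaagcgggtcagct
Ctsa: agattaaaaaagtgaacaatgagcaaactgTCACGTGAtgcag

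The element ends 91 bases before the start in Ctsd and 5 bases before it in Ctsa. A match is a description of letters and not of binding. Tfeb and Tfe3 themselves stood at 12.2 and 11.4 and at 12.4 and 12.7 FPKM, and Mitf, a related factor, at 9.20 and 8.20.

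Macrophage identity genes had the highest median percentile of the lists by FPKM. By CPM, actin cytoskeleton (99.5) and cathepsins (99.4) stood above their 99.1. All 20 members were expressed, 10 of them were in the top 100, and the median percentile by FPKM was 99.5. Beside the markers, Mpeg1 (a pore-forming phagosome protein) stood at 663 and 714 FPKM, Tyrobp and Fcer1g (adaptors that carry activating signals from Fc and TREM receptors) at 515 and 702 and at 512 and 617, and Laptm5 at 512 and 467. The lowest members were Mertk, a receptor for dying cells (36.2 and 37.3 FPKM), and Ptprc, which encodes the CD45 used in the sort (24.6 and 20.6). Itgam, which encodes the CD11b used in the sort, stood at 43.6 and 35.9 FPKM.

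Lists named for several macrophage origins all had expressed members. The lists share genes with general macrophage lists: Csf1r, for example, is also a macrophage identity gene. Expression of a list therefore does not show an origin. Of 16 homeostatic microglia genes, 13 were expressed, at a median percentile of 95.8. Cst3, Csf1r and the Fc receptor-like gene Fcrls (240 and 295 FPKM) were among the highest. Tmem119, a microglial surface protein, stood at 81.6 and 97.0 FPKM, and the fractalkine receptor Cx3cr1 at 138 and 147. The other 3 members were not expressed in this profile by the threshold: Sall1, the transcription factor that sets microglial identity, had no count in either library, Siglech stood at 0.158 and 0.227 FPKM, and the fructose transporter Slc2a5 at 0.0787 and 0.181.

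All 12 border-associated macrophage genes were expressed, at a median percentile of 97.9. Pf4 (a platelet-type chemokine) stood at 217 and 232 FPKM, the scavenger receptor Stab1 at 225 and 202, the clotting factor subunit F13a1 at 168 and 167, and Cbr2 at 146 and 175. Timd4 was the lowest at 0.912 and 1.27. Of 18 genes of monocytes and monocyte-derived macrophages, 16 were expressed, at a median percentile of 83.6. Fibronectin (Fn1, 485 and 461 FPKM), Tgfbi (461 and 410), Ifitm3 (142 and 118) and Emilin2 (107 and 106) led. Ly6c2, which encodes the Ly6C antigen of inflammatory monocytes that antibodies to Gr1 also bind, stood at 0.215 and 0.0748 FPKM. All 19 genes of activated microglia and lipid-associated macrophages were expressed, at a median percentile of 98.4, with Apoe, Spp1, Ctsd and Lgals3 on top and Gpnmb at 255 and 302 FPKM. In bulk RNA these levels cannot show whether the genes were on in the same cells.

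Most lists of other cell types had few expressed genes. Pericyte and fibroblast genes were the exception, with 8 of 12 expressed, led by Cspg4 (47.8 and 45.0 FPKM) and Col1a1 (37.2 and 13.7), and at a median percentile of 62.0. None of 12 genes of natural killer and innate lymphoid cells, none of 13 of mast cells, basophils and eosinophils and none of 12 of neurons reached 1 FPKM. Of 12 T cell genes 4 did so, led by Il7r (26.5 and 24.2 FPKM) and Cd4 (9.16 and 12.1), while the T cell receptor component Cd3g, Cd8a and Cd8b1 had no count. Of 10 B cell genes 2 did so, Cd22 (6.40 and 5.76) and Cd79b (4.56 and 5.19). Of 19 neutrophil genes 5 did so, led by the growth factor receptor Csf3r (17.7 and 15.7) and S100a9 (2.87 and 9.32), and Ly6g and Elane had no count. Of 14 dendritic cell genes 5 did so, led by Sirpa (280 and 269) and Cadm1 (32.3 and 34.6), while Flt3, Zbtb46, Xcr1 and Clec9a stayed below 1 FPKM.

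Among 12 red cell and platelet genes, Pf4, which is also on the border-associated list, and Ppbp (6.13 and 1.37 FPKM) were expressed, and Hba-a2, Hbb-bt and Gp1bb had no count. Of 12 endothelial genes 4 were expressed, the highest being Kdr at 1.81 and 2.09 FPKM and Cdh5 at 1.71 and 1.34. Of 10 astrocyte genes 3 were expressed, led by Aldoc (7.15 and 6.83) and S100b (3.93 and 6.04), and Aqp4 had no count. Of 11 oligodendrocyte lineage genes 4 were expressed, led by Cspg4 and Cnp (11.1 and 13.5), and Mog, Mobp, Olig1 and Olig2 had no count. The mouse counterparts of 11 glioma stem cell genes were led by Cd44 (59.3 and 58.0) and Nes (18.6 and 19.8), and Sox2 and Olig2 had no count. Whether tumour cells were carried over was not tested. Further members with no count in either library were Jchain, Cr2, Ncr1, Klrb1c, Gzma, Tbx21, Ly6d, Epx, Mcpt8, Ms4a2, Prg2, Prss34, Fcer1a, Slco1a4, Gad1, Gad2, Rbfox3, Snap25 and Syt1. The 4 Y-linked genes Kdm5d, Uty, Ddx3y and Eif2s3y also had no count, while Xist, a non-coding RNA of the inactive X chromosome, had 16105 and 7414 counts.

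**Figure D2:**
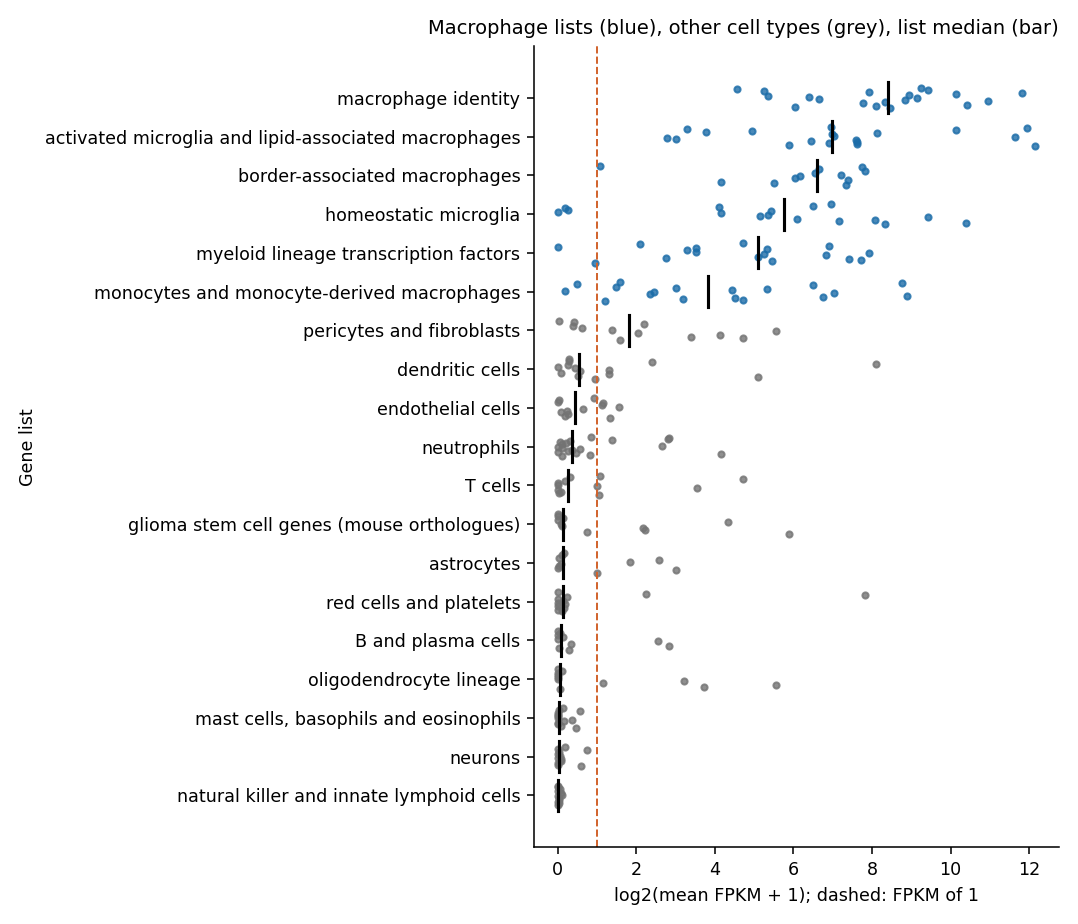
Level of each member of the macrophage lists (blue) and of the lists of other cell types (grey) as log2(mean FPKM + 1) over the control libraries, with a bar at each list's median and a dashed line at 1 FPKM. The macrophage identity members all lie right of the dashed line, and none of the neuron or natural killer genes does.

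Complement and clearance genes were prominent on the secreted and surface side. Of 20 complement components and receptors 17 were expressed, and the list took 2.08% of the summed FPKM in control 1 and 2.59% in control 2, mostly through C1q. Their receptors C3ar1 (152 and 156 FPKM) and Cd93 (152 and 149) followed. Lrp1, a large endocytic receptor, stood at 309 and 231 FPKM, and the scavenger receptor Stab1 was given above. Fcgr3 (146 and 181) and Trem2, a lipid-sensing receptor of microglia (103 and 144), were the highest Fc and ITAM-linked genes after Tyrobp and Fcer1g. Cd14, the co-receptor for endotoxin, was the highest of the toll-like receptor list at 269 and 282 FPKM, ahead of Tlr2 (86.7 and 97.2), Tlr13 (60.1 and 65.8) and Ly86 (48.6 and 56.5), and Tlr11 had no count. Of the integrins, Itgb1 (230 and 240), Itgb2 (215 and 225), Itgb5 (165 and 186) and Itga5 (74.9 and 74.5) were highest.

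The letters GAGGAAGT, the core that PU.1 prefers, were found on either strand in 2.28% of all promoter windows, 2.61% of windows of expressed genes and 4 of 86 windows (4.65%) of the top 100. Those 4 windows belong to Spp1, C1qc and Selenop only, since Selenop has overlapping windows that hold the same site. The letters were found in 1 of the 13 cathepsin windows and in none of the 16 windows of the macrophage identity genes, which says only that these letters are not in those windows. The Spp1 and C1qc windows are shown because these were the highest genes to hold the letters, which are in capitals. C1qc holds them on the opposite strand, as ACTTCCTC. Spp1 is on chr5:104434968-104435035, plus strand, 105 bases before the start, and C1qc is on chr4:136893072-136893139, minus strand, 187 bases before it.
Spp1: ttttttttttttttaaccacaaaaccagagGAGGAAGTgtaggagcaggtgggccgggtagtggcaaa
C1qc: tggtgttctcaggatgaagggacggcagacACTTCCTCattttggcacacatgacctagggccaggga

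Chemokine ligands were expressed broadly. Of 25 ligands 21 were expressed, at a median percentile of 97.7 by FPKM and 87.5 by CPM, and 11 exceeded 100 FPKM. Ccl6 (235 and 317 FPKM), Cxcl14 (248 and 271), Ccl2 (195 and 258), which attracts monocytes, and Pf4 led. The interferon-induced T cell attractant Cxcl9 stood at 0.195 and 0.204 FPKM. Receptors were fewer, with 12 of 21 expressed at a median percentile of 59.8. On this list C3ar1, Cx3cr1, C5ar1 (146 and 136) and Cxcr4 (148 and 121) were highest, and Ccr2, the receptor for Ccl2, stood at 10.2 and 5.93. C3ar1 and C5ar1 are complement receptors that the list holds beside the chemokine receptors.

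Among 25 cytokines 18 were expressed. Grn, Mif (392 and 404 FPKM), Tnf (73.8 and 85.1) and Tgfb1 (65.9 and 59.7) led, and Il6 (0.110 and 0.190), Il12a (0.189 and 0.0301), Il23a (0.0953 and 0.0684) and Ifng (0.0413 and 0) were near the floor. Of the growth and matrix factors, Spp1, the urokinase gene Plau (520 and 579), Fn1 and Tgfbi were highest, Vegfa stood at 56.3 and 43.5, and Igf2 had no count. Of the matrix proteases and inhibitors, the inhibitor Timp2 (415 and 502), the membrane protease genes Adam8 (291 and 281) and Adam9 (106 and 109) and the gelatinase Mmp9 (106 and 98.8) were highest. Among colony-stimulating factor genes, Csf1r was followed by Csf2ra (210 and 196), Csf2rb (30.2 and 23.7) and Csf2rb2 (27.0 and 23.7), whose transcripts are 91.7% identical over the aligned stretch.

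Antigen presentation was uneven between the class I and class II lists. All 17 MHC class I genes were expressed, at a median percentile of 93.8. After B2m and H2-D1 came the chaperones Calr (523 and 612 FPKM) and Pdia3 (273 and 340), while H2-K1, another class I heavy chain, stood at 31.7 and 38.5. The class II list also holds the protease gene Ctss and the costimulatory genes Cd86, Cd40 and Cd80, and 10 of its 14 members were expressed. Cd80 (1.29 and 0.581 FPKM), H2-Ob (0.849 and 0.715), Ciita (1.01 and 0.527) and H2-Oa (0.122 and 0.234) had means below 1 FPKM. Cd74, the invariant chain, stood at 366 and 218 FPKM, higher in control 1. The chain genes H2-Eb1 (106 and 68.6), H2-Ab1 (21.8 and 15.7) and H2-Aa (11.9 and 8.12) followed the same order between the libraries, and the loading factor H2-DMa (35.2 and 37.6) did not. MHC genes differ between mouse strains and the strain is not named, so how far reads of another haplotype were counted at H2-K1, H2-Ab1 and H2-Aa was not tested. Of the checkpoint and suppressive genes, Arg1, Sirpa, Lgals9 (105 and 122) and Havcr2, which encodes TIM-3 (94.2 and 113), were highest. Cd274, which encodes PD-L1, stood at 42.7 and 35.8.

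Genes of alternative activation ranked above those of classical activation. All 20 alternative genes were expressed at a median percentile of 88.7, and 12 of 19 classical genes at 69.1. By CPM, without the length, the medians lay closer, at 81.2 for the alternative and 75.2 for the classical list. Arg1, the arginase that turns arginine into ornithine, stood at 542 and 680 FPKM, the mannose receptor Mrc1 at 159 and 136, and the scavenger receptor Msr1 at 125 and 155. Nos2, which makes nitric oxide from the same amino acid, stood at 11.5 and 7.50 FPKM. The highest classical genes were Tnf, Socs3 (85.1 and 73.4), Irf5 (70.4 and 65.5) and Cd38 (24.1 and 25.9). Some alternative genes were low, among them Ccl24 (3.35 and 2.33), Cd209a (1.01 and 1.91) and Ccl22 (1.17 and 1.17). Of 22 interferon-stimulated genes 21 were expressed, at a median percentile of 79.9, led by Bst2 (251 and 364), Oas1a (26.9 and 30.7), Oasl1 (22.8 and 24.5) and Ifit3 (25.1 and 20.6).

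Glycolysis, iron storage and lipid genes were among the highest metabolic genes. All 20 glycolysis genes were expressed, at a median percentile of 97.8. Aldoa (779 and 833 FPKM), Pkm (757 and 850), Gapdh (772 and 806) and Ldha (536 and 674) were in the top 100. Of 19 hypoxia-induced genes 18 were expressed, led by Arg1, Mif, Bnip3 (135 and 166) and the lipid droplet gene Hilpda (134 and 162). The lipid droplet coat gene Plin2 stood at 404 and 468 FPKM and the lysosomal lipase gene Lipa at 153 and 154, and Apoc2 had no count. Of 16 iron and haem genes 13 were expressed. Fth1, Ftl1 and Hmox1 (888 and 1033) were far above Slc11a1, an iron transporter of phagosomes (57.7 and 56.5), and the iron exporter Slc40a1 stood below the threshold at 0.642 and 0.620. Of 14 arginine, itaconate and tryptophan enzymes 8 were expressed, and after Arg1 the arginine transporter Slc7a2 (50.4 and 50.7), Odc1 (39.5 and 45.7) and Ass1 (20.1 and 24.2) led. Acod1, which makes itaconate, stood at 1.88 and 2.97, and Ido2 and Il4i1 had no count. All 22 antioxidant and NADPH oxidase genes were expressed, led by Hmox1, Cyba (361 and 551), Gpx1 (304 and 432) and Txn1 (159 and 214).

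Stress and immediate-early genes were high. All 26 immediate-early genes, which respond within minutes to stimulation and also to enzymatic tissue dissociation, were expressed at a median percentile of 98.3. Fos stood at 442 and 374 FPKM, Jun at 280 and 298, Atf3 at 260 and 287 and Junb at 252 and 228. The share of this level that arose in the tumour or during digestion was not tested. All 20 chaperone genes were expressed, led by Calr, Hsp90ab1 (435 and 492), Hspa5 (338 and 466) and Pdia3. The inducible heat-shock genes Hspa1b (197 and 94.9) and Hspa1a (76.0 and 37.9) were more than 2-fold higher by CPM in control 1, as were 0.703% of the 9674 genes with a mean of at least 5 CPM. With TMM or DESeq2 scaling Hspa1a fell short of 2-fold, at 1.98-fold and 1.97-fold. The transcripts of both are 98.8% identical over the aligned stretch, so the split of reads between them is uncertain. Of 14 glucocorticoid-induced genes 13 were expressed, led by Mt1 (351 and 431), Dusp1 (233 and 198), Sgk1 (159 and 178) and Zfp36 (184 and 146).

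Growth genes were also expressed. All 28 cell cycle genes passed 1 FPKM, at a median percentile of 88.8, with Pcna at 81.7 and 110 FPKM, Stmn1 at 41.0 and 50.7, Mcm6 at 43.8 and 46.9 and Ccnd1 at 44.9 and 45.3. Mki67, a marker of cycling cells, stood at 36.7 and 28.1. All 25 actin cytoskeleton genes were expressed at a median percentile of 99.1, and 22 exceeded 100 FPKM. All 17 translation factors were expressed, led by Eef1a1, Eef2 (779 and 811), Tpt1 (478 and 704) and Eif4a1 (223 and 283).

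Bace1, the target of the inhibitor used elsewhere in the series, was among the low genes of the resting profile at 1.86 FPKM in control 1 and 1.11 in control 2. Of 17 secretase and amyloid precursor genes 15 were expressed. The precursor genes App (99.4 and 111) and Aplp2 (87.5 and 92.5) were highest, ahead of the alpha-secretase gene Adam10 (76.9 and 75.8) and the gamma-secretase subunit gene Ncstn (60.3 and 62.8). Bace2 stood at 0.00679 and 0 FPKM.

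Transcription factors were few among the most abundant genes. Of 1451 genes with a factor family in the table, 608 (41.9%) were expressed, 17 reached 100 FPKM and Fos alone was in the top 100. Over all 22046 protein-coding genes 45.3% were expressed. Of these 22046, 433 (1.96%) lay between 100 and 1000 FPKM and 25 (0.113%) at 1000 or over. Among lineage and immediate-early factors, Fos, Jun, Atf3, Junb, Cebpa (210 and 211 FPKM), Klf6 (178 and 202), Klf2 (167 and 189) and Cebpb (173 and 168) were among the highest, and Spi1 stood at 115 and 124. The families differed in how many members were on. All 10 genes of the E2F family, regulators of the cell cycle led here by Tfdp1 (mean 28.2 FPKM), were expressed. So were 39 of 48 bZIP genes (81.3%), the family that holds Fos, Jun and Atf3 in the table. Of 229 homeobox genes, best known as patterning factors, 18 (7.86%) were expressed.

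TATAAA, the core of the TATA box, was found on either strand in 11.2% of all windows. It was found in 6.18% of windows of expressed genes, 16.4% of windows of genes below 1 FPKM, and 15 of 86 windows (17.4%) of the top 100. The Vim, Fos and Cebpa windows are shown because they hold the letters, in capitals, 26, 27 and 24 bases before the start and belong to an abundant structural gene and to factors named above. Vim is on chr2:13574249-13574310, Fos on chr12:85473827-85473889 and Cebpa on chr7:35119233-35119292, all on the plus strand.
Vim: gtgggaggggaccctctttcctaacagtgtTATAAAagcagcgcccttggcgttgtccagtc
Fos: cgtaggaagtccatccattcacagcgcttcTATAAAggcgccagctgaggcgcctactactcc
Cebpa: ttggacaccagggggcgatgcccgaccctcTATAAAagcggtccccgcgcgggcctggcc

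The letters CCGGAAGT, a core shared by many ETS factors, gave the opposite order between expressed genes (6.43% of windows) and those below 1 FPKM (1.44%). They were found in 3.96% of all windows, but in 44 of 981 (4.49%) of the top 1000 and 2 of 86 (2.33%) of the top 100.

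The mitochondrially encoded genes fell into 2 classes by their counts. The 7 genes mt-Nd1, mt-Nd2, mt-Co1, mt-Nd4, mt-Nd5, mt-Nd6 and mt-Cytb had between 2794 counts (mt-Nd6, control 1) and 132948 (mt-Co1, control 2), and all of them were in the top 100 by FPKM. The other 6 are neighbours on the mitochondrial genome, from mt-Co2 through mt-Atp8, mt-Atp6, mt-Co3 and mt-Nd3 to mt-Nd4l, and had at most 224 counts. The oxidase subunits mt-Co1, mt-Co2 and mt-Co3, parts of the same enzyme, had 90582, 108 and 88 counts in control 1 and 132948, 224 and 139 in control 2. The transcripts of mt-Co2, mt-Atp6, mt-Co3 and mt-Nd4l match nuclear pseudogenes on chromosome 1 with 100% identity over 99.6%, 99.6%, 99.9% and 99.0% of their length, and mt-Nd3 matches with 99.7%. For mt-Atp8 the best match had 81.4% identity. The pseudogenes of mt-Co2, mt-Atp6 and mt-Co3 (Gm28661, Gm10925 and Gm28437) had 127, 137 and 138 counts in control 1 and 234, 194 and 217 in control 2. Among the 7 high genes, the best match of mt-Co1 had 97.6% identity over its whole length, and mt-Nd4 matched with 100% over 63.6% of its length. How reads with more than 1 matching place were counted is not given in the sources used here, so the FPKM of these 6 genes, and the mitochondrial share of counts, 1.10% and 1.38%, are uncertain.

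**Figure D3:**
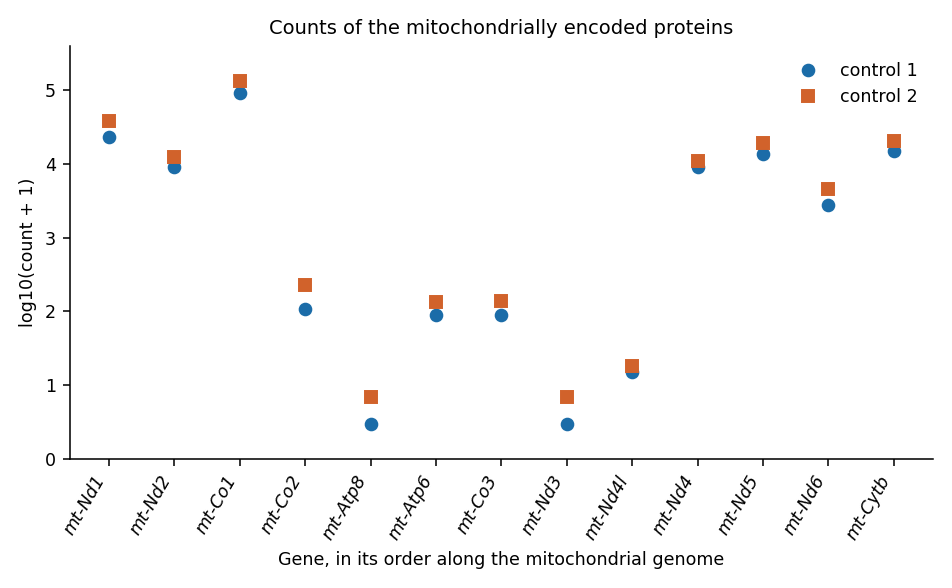
Counts of the 13 mitochondrially encoded protein genes in each control library, as log10(count + 1), in their order along the mitochondrial genome. The 6 neighbours from mt-Co2 to mt-Nd4l lie at 224 counts or fewer, and the 7 genes on either side lie at 2794 or more in both libraries.

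The 2 libraries agreed closely in rank. Across 22046 protein-coding genes, Pearson's r of log2(FPKM + 1) was 0.994 and Spearman's rho 0.974. Among the 9993 expressed genes they were 0.985 and 0.980. Genes are not independent replicates, so these values carry no p. Of 9674 genes with a mean of at least 5 CPM, 69.6% lay within 1.25-fold and 92.3% within 1.5-fold by CPM. The SD of the log2 ratio of CPM over these genes was 0.34. The SD of the log2 ratio fell with the level, from 1.09 between 0.1 and 1 FPKM to 0.40 between 1 and 10, 0.31 between 10 and 100, 0.25 between 100 and 1000 and 0.20 at 1000 and over. Counting error alone would give a median SD of 0.43, 0.11, 0.05, 0.02 and 0.01 in the same ranges. The common biological coefficient of variation estimated by edgeR was 16.1%.

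**Figure D4:**
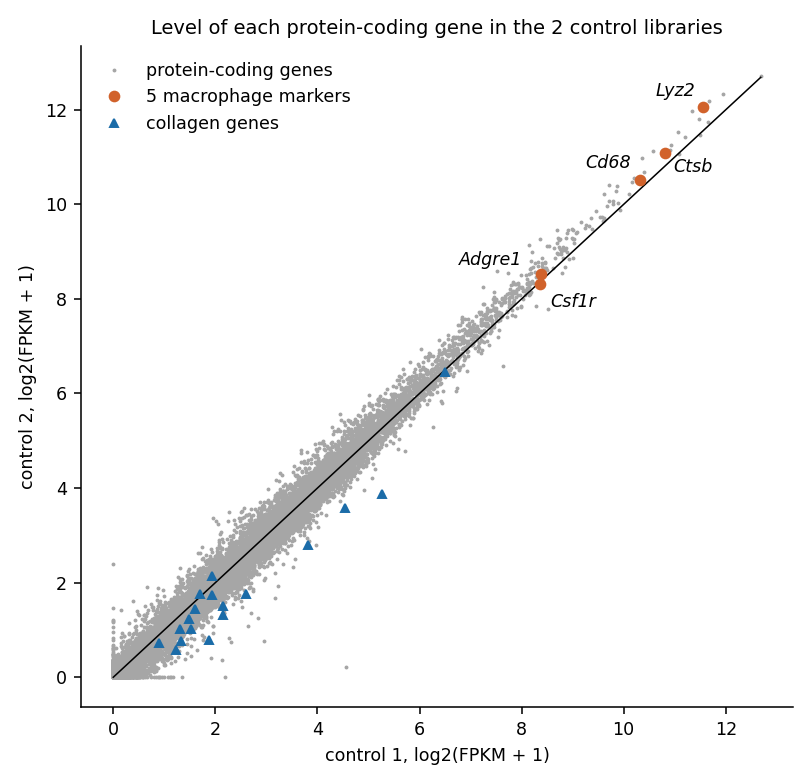
Level of each protein-coding gene in control 1 (x axis) and control 2 (y axis) as log2(FPKM + 1), with the line of equality, the 5 macrophage markers as orange circles and the 18 collagen genes with a mean of at least 5 CPM as blue triangles. Genes lie along the line with r = 0.994, control 2 is higher for Lyz2, Ctsb, Cd68 and Adgre1, and most collagens lie below the line.

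Few genes differed by more than 2-fold. By CPM, 68 of 9674 genes (0.703%) were more than 2-fold higher in control 1 and 19 (0.196%) in control 2. With TMM scaling the split was 47 and 38, and with DESeq2 size factors 46 and 40, so the excess toward control 1 depended on the scaling. Extracellular matrix genes led those higher in control 1. Thbs4 (thrombospondin 4) had 242 counts in control 1 and 44 in control 2, Tnc (tenascin C) 758 and 169, and Ltbp2, which anchors latent TGF-beta, 266 and 68. Fbln2 (fibulin 2) had 948 and 274 counts, Col12a1 754 and 218, Aebp1 417 and 125, Hspg2 (perlecan) 497 and 159, Fbn1 (fibrillin 1) 545 and 188, Lox, which crosslinks collagen, 753 and 264, and Col16a1 168 and 64. The log2 ratios of these 10 genes ran from 1.53 to 2.59. Gm10800, a predicted locus, had 277 and 2 counts, the most unequal pair of all 9674 genes.

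Collagens as a family showed the same order. Of 18 collagen genes with a mean of at least 5 CPM, 16 were higher in control 1, beside 5355 of all 9674 genes. By more than 2-fold, 8 collagens were higher in control 1 and none in control 2. Their median log2 ratio was 0.97 against 0.04 for all 9674 genes. Of the 2420 longest genes, from 7003 bases up, 16.7% were higher in control 2 and 32 were more than 2-fold higher in control 1. Col1a1 stood at 37.2 FPKM in control 1 and 13.7 in control 2, Col3a1 at 22.2 and 11.0, and Col1a2 at 13.1 and 5.98. The exceptions were Col4a1 (2.80 and 3.40) and Col6a6 (2.24 and 2.39). Col14a1, the highest collagen, was nearly equal at 89.0 and 86.5. With TMM or DESeq2 scaling, 16 were again higher in control 1, and 7 passed 2-fold. The pericyte and fibroblast list, which shares Col1a1, Col1a2, Col3a1 and Col4a1 with this family, had a summed FPKM of 133 in control 1 and 86.3 in control 2. Of its 7 genes with a mean of at least 5 CPM, 6 were higher in control 1 and 4 passed 2-fold (3 with TMM or DESeq2 scaling), with a median log2 ratio of 1.09. Low members were also mostly higher in control 1: Dcn stood at 2.34 and 0.869 FPKM, Lum at 0.700 and 0.356 and Pdgfra at 0.454 and 0.138. Rgs5 (0.283 and 0.394) was not, and Pdgfrb (3.62 and 3.53) was nearly equal. In bulk RNA, fewer cells of a type and less RNA per cell cannot be told apart, and whether other cells contributed to the collagen level was not tested.

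Higher in control 2 by more than 2-fold were Il10, an anti-inflammatory cytokine, with 93 and 264 counts, the lectin gene Cd209b with 85 and 212, and Cd5l, a secreted macrophage protein, with 127 and 296. The other 7 of the 10 largest ratios in this direction were Tubb4a, Churc1, Pet100, Cops9, Tmem256, Avpi1 and Uqcc3. Their log2 ratios of control 1 over control 2 lay between -1.17 and -1.06.

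The difference between the libraries went with gene length. Across the 9674 genes, Spearman's rho of deposited gene length with the log2 ratio of control 1 over control 2 was 0.52. The shortest quartile, up to 2937 bases, had a median log2 ratio of -0.18, and the following quartiles had -0.01, 0.10 and 0.23. Within genes of 1 to 10, 10 to 100 and at least 100 FPKM, rho was 0.42, 0.59 and 0.49. The 68 genes higher in control 1 had a median length of 6736.5 bases and the 19 higher in control 2 one of 1788, beside 4610.5 for all. Kmt2d, a long chromatin regulator gene picked after its values were seen, stood at 9.06 and 4.24 FPKM. The collagens, with a median length of 7895 bases, exceeded the median of the longest quartile. What made the libraries differ by length was not tested.

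Short, abundant ribosomal protein genes lay on the other side. Of 84 cytosolic ribosomal protein genes 79 were expressed, 16 in the top 100. Of 78 with a mean of at least 5 CPM, 75 were higher in control 2, with a median log2 ratio of -0.41. Of all 9674 genes past that floor 4319 were higher in control 2, and of the shortest quartile of length 76.1% were. The share of the ribosomal protein genes in the summed FPKM was 5.47% in control 1 and 6.67% in control 2. Rplp1 stood at 840 and 1354 FPKM and Rpl36 at 327 and 613. A few members of the ribosome were low, among them Rpl13a (3.80 and 5.74), Rps10 (1.02 and 0.665) and Rpl24 (0.728 and 0.846), and reads of genes with near-identical copies may have been split or dropped by the counting. The same caution holds for Lyz1 (17.2 and 24.4), whose transcript is 96.0% identical to that of Lyz2 over the aligned stretch.

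**Figure D5:**
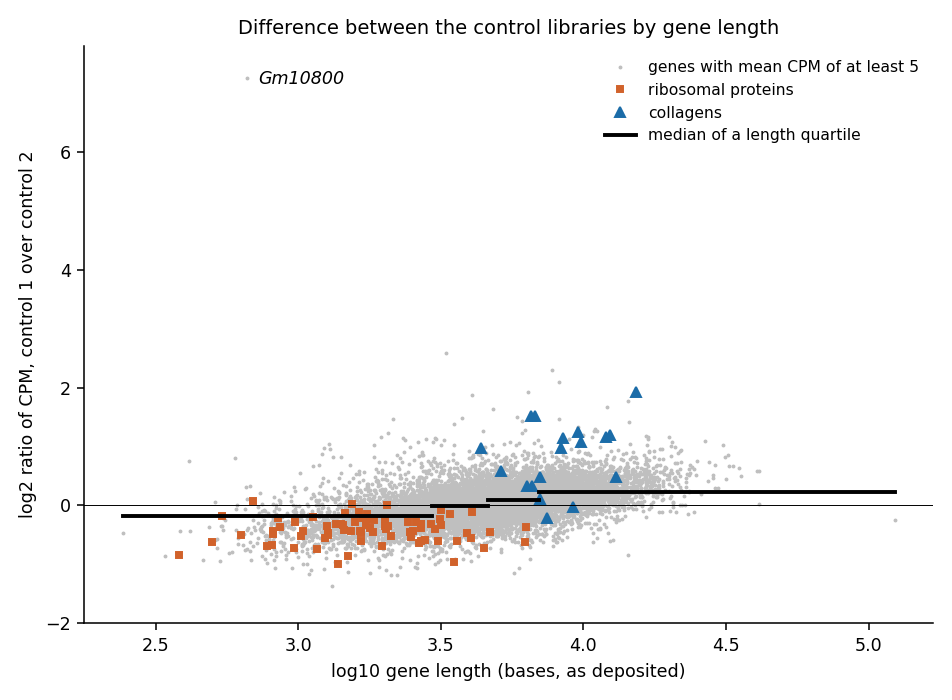
Log2 ratio of CPM, control 1 over control 2, against log10 of the deposited gene length for the 9674 genes with a mean of at least 5 CPM, with ribosomal protein genes as orange squares, collagens as blue triangles and a black bar at the median of each quartile of length. The bars climb from -0.18 to 0.23, 75 of 78 ribosomal genes lie below 0, and 16 of 18 collagens lie above it.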

How the data were processed

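Messenger RNA was measured in 2 control libraries of sorted mouse macrophages, grouped by their titles. The authors deposited whole-number counts per gene, per the file headers. The FPKM columns are the authors' too, per the file headers, and each value was found to be its count divided by gene length times a fixed number for the library. The implied library sizes were 1.016 and 0.967 times the total counts, so FPKM ratios and CPM ratios differ by a constant. Ratios in the text are by CPM unless FPKM is named. Another 4 columns of values per library were not used. CASAVA and build mm9 appear in the submitters' processing notes. Of 21951 protein-coding identifiers shared with GENCODE M21, 21180 (96.5%) have its GRCm38 coordinates, and GRCm38 positions are printed. No aligner, counting tool or strand setting is named in the sources used here.

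Genes were ranked by mean FPKM. CPM was the count over the library total, and ratios used genes with a mean of at least 5 CPM. Dispersion was estimated with edgeR 4.0.16 in R 4.3.3 (TMM, at least 10 counts in both libraries). DESeq2 1.42.0 gave alternative size factors. The ratio and dispersion scripts were tested on simulated data. No comparison with treated libraries and no test was made. The members and the 54 gene lists (818 genes) were chosen with earlier results of these data known. Genes were named by rule: the 30 highest, the 5 markers, the 4 highest members of each list (2 for other cell types), members with no count, the 10 largest ratios in each direction without predicted loci, the genes at the threshold, the highest lineage and immediate-early factors, and near-identical copies. Any other gene named, such as low members of a list, Kmt2d or Gm10800, was chosen after its values were seen. Proteins were not compared; transcripts were aligned instead. Some genes that the rule takes are left out here.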

Additional observations from a re-analysis of the deposited data

How the results depend on the processing

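The number of expressed genes was 9993 at 1 FPKM, 10826 at 0.5, 6492 at 5, 11367 with FPKM rescaled to TPM, a larger sum per library at which a cut of 1 lies lower on the FPKM scale, and 9934 to 10010 from a single library. The share of the summed level in the 10, 100 and 1000 highest genes was 12.7%, 34.9% and 68.0% by the mean of the libraries. By counts, not per length, it was 7.61%, 24.4% and 57.7%, and over all kinds of genes by FPKM the first 2 were 18.7% and 39.6%. From a single library these shares ran from 12.2% to 13.2%, from 33.5% to 36.3% and from 66.6% to 69.4%. Pearson's r between the libraries stayed between 0.985 and 0.995 under the 5 alternatives tried. Genes past 2-fold numbered 68 higher in control 1 and 19 in control 2. They numbered 1909 and 1009 with no floor, 25 and 3 with a floor of 20 CPM, 47 and 38 with TMM, and 46 and 40 with DESeq2 size factors. The scalings of the collagen, pericyte and heat-shock ratios were added after seeing the data. At 1.5-fold they numbered 455 and 288, and at 4-fold 4 and 0. The common coefficient of variation lay between 15.1% and 17.2%. Of the 54 lists, 24 had a median percentile above 90, as did 24 and 25 from a single library and 23 by CPM. The list that moved most by CPM was MHC class II, from a median percentile of 87.3 to 74.3, and 45 of 54 moved by less than 5 points. No paired analysis was possible because only the control group was described and no test was made.

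With 2 libraries, the spread of any single gene is poorly known. Levels below 0.1 to 1 FPKM rest on few counts, and lists whose members are nearly all at 0 change rank with single counts: the natural killer list moved by 20.2 points between the libraries.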

Other observations

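Several list members are marked in the deposited table as other than protein-coding and so lie outside the ranking. Ifi30, a lysosomal thiol reductase gene of antigen processing, stood at 304 FPKM in control 1 and 333 in control 2. The beta-glucan receptor gene Clec7a stood at 36.5 and 50.6 FPKM. Ighm, the heavy chain of immunoglobulin M, stood at 24.4 and 18.5 FPKM, while Igkc, Trbc1 and Trbc2 had no count in either library. Long intergenic non-coding RNAs took 0.496% of counts in control 1 and 0.230% in control 2, and ribosomal RNA took 0.435% and 0.353%.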
